A study of Schizosaccharomyces pombe with 8 samples.

Results

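The genes described here encode proteins of the large (60S) subunit of the cytosolic ribosome of the fission yeast Schizosaccharomyces pombe. They are the listed genes whose symbol is rpl followed by a digit, except rpl39 and rpl3402, and they number 65 of the 527 genes in the deposited count table. The P stalk genes (rpp) and the genes of mitochondrial ribosomal proteins (mrpl) are not among them. RNA was sequenced from wild-type cells (WT, strain yAS99) and from slr1- cells, which the labels call a knockout of slr1, as total RNA and as polysome RNA, the RNA that sediments with several ribosomes. All cells were grown in YES, a rich yeast extract medium, at 32°C with shaking at 200 rpm, and all 4 groups carry the label of 100 µg/mL cycloheximide, so no untreated cells were compared. The 2 libraries of each group are biological replicates by their titles. Nothing says that they came from separate cultures, and a p-value covers only the spread between such libraries, which may be technical. The gene slr1 itself was not analysed here, so the knockout was not checked from its own RNA.

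Slr1p is a La-related protein, and in mammals the related LARP1 binds the start of mRNAs that begin with a run of pyrimidines, among them the mRNAs of ribosomal proteins. The large subunit holds the site of peptide bond formation and the tunnel through which the new chain leaves. Each of its proteins is needed in about the same number of copies, while in yeasts many of them are encoded by a pair of nearly identical genes at unlinked sites. In fission yeast the promoters of these genes often carry the HomolD box, which takes the place of a TATA box, and upstream of it the HomolE box.

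The 65 genes fell into 39 families by their number, 26 with both copies listed (52 genes) and 13 with a single listed gene. They lay on chromosomes I (27 genes), II (24) and III (14) of the RefSeq assembly ASM294v3. The reference held 76 rpl genes in all. Of these, 9 were not analysed here: rpl802, rpl803, rpl1001, rpl1002, rpl1201, rpl1202, rpl1603, rpl4101 and rpl4102. By its number rpl1603 belongs with rpl1601 and rpl1602, so the rpl16 pair leaves out a copy. Within the 27 pairs that include rpl3401 and rpl3402, the encoded proteins were identical in 3 pairs (rpl11, rpl20 and rpl23), differed at 1 to 5 residues in 11 and at more in 13. The lowest identity was 79.5% (rpl30) and the median 96.4%. The symbols rpl8 (eL8) and rpl801 (uL2) name different proteins and were not treated as copies. The reference annotates rpl701 as a subunit of RNase MRP resembling the L7 protein, and rpl44 as a protein of the L28e family.

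Reads of 50 bases can fail to tell copies apart, so the share of each mRNA's 50-base words that another annotated mRNA also holds was counted. It was 0% for 51 of the 65 genes, 66.8% for rpl301 and 56.1% for rpl302, and at most 8.92% (rpl502) for the rest. The values of the separate rpl3 copies are therefore uncertain, while a read with a mismatch could still be shared in other families.

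The promoters of the 4 families below are shown because their copies differed most between strains among the families in which both promoters hold a HomolD box (see the copy comparisons further on). Each line is an 80-base stretch upstream of the annotated start, 5′ to 3′ in the direction of the gene, from RefSeq assembly ASM294v3, which may not be the build used by the authors. Capitals mark HomolD (CAGTCACA, or TGTGACTG on the other strand) and HomolE (ACCCTACCC, or GGGTAGGGT). The stretches were rpl101 chrIII:612596-612675 (minus strand), rpl102 chrII:3060452-3060531 (plus strand), rpl2101 chrII:2503795-2503874 (minus strand) and rpl2102 chrI:3400433-3400512 (plus strand). The others were rpl3001 chrI:1974092-1974171 (minus strand), rpl3002 chrI:5095895-5095974 (minus strand), rpl1701 chrII:1734026-1734105 (minus strand) and rpl1702 chrIII:482838-482917 (minus strand).
rpl101: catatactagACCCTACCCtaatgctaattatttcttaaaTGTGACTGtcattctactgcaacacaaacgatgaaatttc
rpl102: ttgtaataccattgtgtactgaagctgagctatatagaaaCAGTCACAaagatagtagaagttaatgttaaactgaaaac
rpl2101: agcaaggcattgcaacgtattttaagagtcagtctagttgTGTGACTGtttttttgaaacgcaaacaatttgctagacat
rpl2102: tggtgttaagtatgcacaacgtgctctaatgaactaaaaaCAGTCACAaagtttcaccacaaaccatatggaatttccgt
rpl3001: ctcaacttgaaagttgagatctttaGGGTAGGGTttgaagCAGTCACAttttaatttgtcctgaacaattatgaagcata
rpl3002: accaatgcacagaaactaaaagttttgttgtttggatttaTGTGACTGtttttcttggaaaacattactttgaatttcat
rpl1701: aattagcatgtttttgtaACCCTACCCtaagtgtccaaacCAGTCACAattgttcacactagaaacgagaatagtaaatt
rpl1702: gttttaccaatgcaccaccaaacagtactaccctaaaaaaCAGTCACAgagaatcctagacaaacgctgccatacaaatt

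Of the 65 genes 43 (66.2%) held HomolD within 250 bases upstream of the annotated start on either strand, against 33 of 52 small subunit genes (63.5%), 5.14% of the other annotated listed genes and 2.6% of all 5156 annotated mRNAs. The box began a median of 50 bases before the start, with 41 of the 43 between 30 and 100 bases. One box, at chrIII:89632-89639, lay between the divergent genes rpl35 and rpl902 and was counted for both. HomolE was found before 17 of the 65 genes (26.2%), against 18 of 52 small subunit genes (34.6%) and 1.26% of all mRNAs. In each of rpl101, rpl3001 and rpl1701 the printed stretch held both boxes, and in their partners rpl102, rpl3002 and rpl1702 it held HomolD alone. In the rpl21 pair neither stretch held HomolE. In the comparison of strains in total RNA described below, the median log2 change was 0.39 with HomolD and 0.35 without it, and 26 of 43 and 13 of 22 genes rose. It was 0.42 with HomolE and 0.34 without it, and 14 of 17 and 25 of 48 genes rose. Neither difference was tested. The printed pairs were chosen by their strain differences, so they do not stand for all pairs. In the other pairs with HomolD in both copies and HomolE in 1, the results were mixed. The copy with HomolE changed more in rpl18 (0.42 against 0.24) and rpl9 (0.38 against 0.35). It changed less in rpl28 (0.42 against 0.76) and rpl5 (0.34 against 0.59).

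The mRNA starts are shown because of the pyrimidine run that LARP1 binds in mammals. The lines give the first 20 bases of the annotated mRNA as DNA, from the same assembly, for 6 genes that rose in total RNA and for rpl102 and rpl2402, which did not pass the test. Capitals mark the longest unbroken run of C and T.
rpl14: gCTCTTCCCCTaacaagtca
rpl2101: aacctacagTTCCCTTTCac
rpl3001: agcaccaCCTTTCTCCaaca
rpl1701: agCCTTTTaccacaacaaaa
rpl3702: gCCagcaacaaactagcaaa
rpl2801: acccaCTCTattaaggcgaa
rpl102: attgcaTTCTgaatattgaa
rpl2402: gaCCacgaactactaggaaa

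Of the 63 genes with an annotated 5′ UTR, 3 (4.76%) began with a pyrimidine, against 4.43% of all annotated mRNAs. A run of at least 5 pyrimidines in the first 20 bases was found in 18 (28.6%), against 34.6% of all mRNAs. The runs of rpl14 and rpl2101 were 10 and 9 bases long and that of rpl3702 was 2, and all of these genes rose. Runs of 6 bases were found in rpl13 and rpl3002 too, which did not pass. The median change in total RNA was 0.41 in the 18 genes with such a run and 0.38 in the 45 without. Of these, 11 and 26 rose. Annotated starts may differ from the starts used in these cells.

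The listed counts summed to between 550490 and 1110838 per library, and this total covers the 527 listed genes only. The lowest count of a large subunit gene in a library was 240, and the median of the 65 mean counts was 2074. Of the counts of all listed genes, the 65 genes took 23.3% and 22.8% in the total RNA of WT cells, and 27.8% and 26.1% in that of slr1- cells. Their part of polysome RNA was 21% and 21.3% for WT, and 23.3% in each slr1- library. In both fractions each slr1- library was above each WT library. Levels are given below as normalised counts, and they are comparable between genes only after division by transcript length.

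In WT total RNA the levels per kb of transcript ran from 172 ± 15.7 (rpl302) to 23537 ± 969 (rpl31; mean ± SD, n = 2) normalised counts per kb, a 137-fold range with a median of 3281. The most abundant were rpl31 (eL31, at the exit of the tunnel), rpl29 at 22737 ± 1339, rpl22 (eL22) at 22417 ± 782 and rpl35 at 16301 ± 1250. The first 3 of these did not differ beyond their spread, and rpl35 was below them. The least abundant after rpl302 were rpl401 (262 ± 36.4) and rpl1702 (377 ± 67.5), each the minor copy of its pair. In slr1- total RNA the ends of this order were again rpl302 (247 ± 16.3) and rpl31 (33524 ± 837), and the median was 4104.

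**Figure D1:**
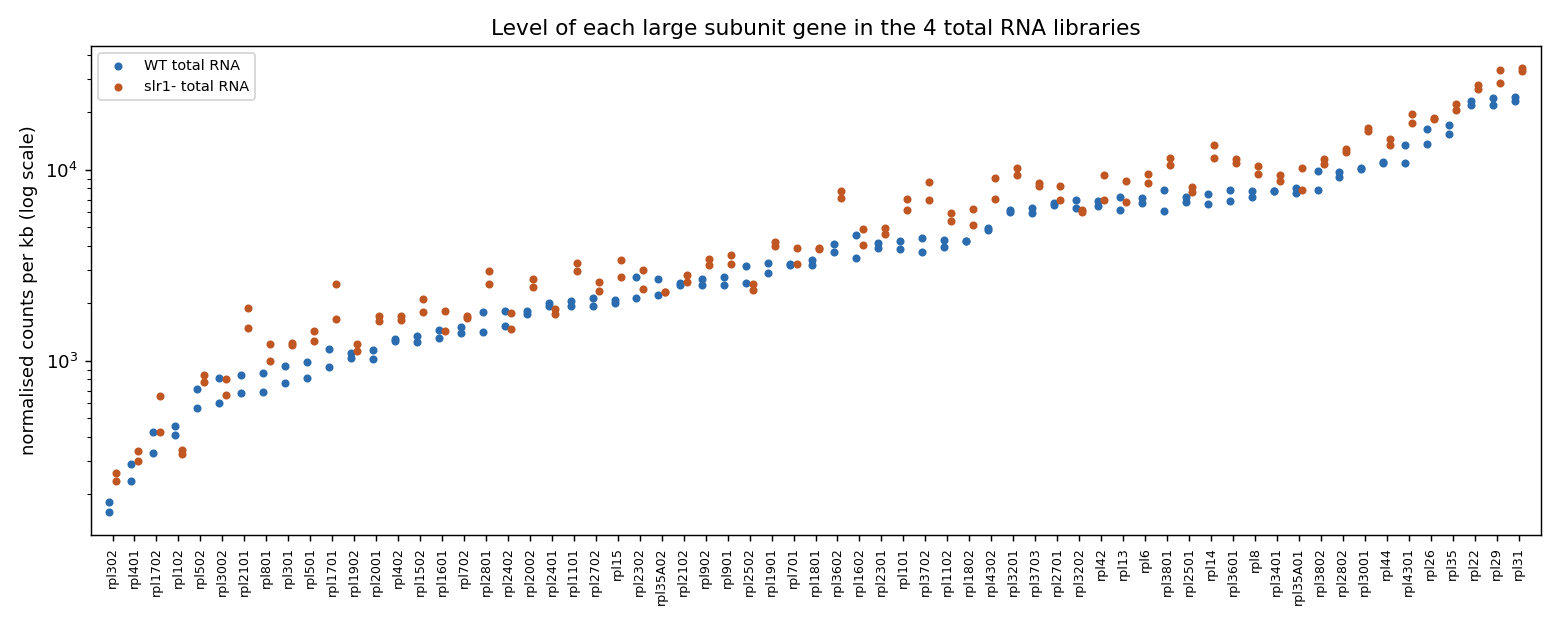
Normalised counts per kb of annotated transcript (log scale) of the 65 large subunit genes in the 4 total RNA libraries, ordered by the WT mean. Points are libraries, blue for WT and orange for slr1-. The WT means run from 172 (rpl302) to 23537 (rpl31), and the slr1- points lie above the WT points for most genes.

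The comparison of the strains in total RNA asked how the abundance of these mRNAs differs without Slr1p. Of the 65 genes, 39 rose in slr1- cells, 0 fell and 26 did not pass the edgeR quasi-likelihood test with Benjamini-Hochberg adjustment at 0.05. Among all 527 listed genes 19.7% rose and 33.6% fell. The median log2 change of the 65 was 0.38 (1.3-fold) and 59 values were positive, whereas the median of all listed genes was -0.19. That of the 401 listed genes without an rpl, rps (small subunit) or rpp symbol was -0.36. Most changes were small: 17 of the 39 were at least 1.5-fold and 2 at least 2-fold. The choice of genes bears on the count of 0, since both rpl genes left out had fallen, and with them it is 39 rises and 2 falls of 67. By the authors' deposited table, whose false discovery rates for total RNA were read at the same threshold, 34 of the 65 passed, and all 34 were among the 39.

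The number of rises depended on the scaling and on 1 library. It was 56 genes with scaling factors computed without ribosomal protein genes, against 34.5% of all listed genes that rose. It was 25, with 4 falls, when only library sizes were used, against 11.4% and 49.3%; those 4 were rpl102, rpl2401, rpl2502 and rpl3202. Those scalings moved the median of all listed genes by 0.34 and -0.18, so each change is relative to the other listed genes. Under both, the median of the 65 lay above that of the genes without an rpl, rps or rpp symbol (0.73 against -0.023, and 0.20 against -0.54). Without replicate 1 of slr1- total RNA it was 20 genes, all among the 39, against 9.68% of all listed genes. A group of 19 genes passed under each alternative that tested them: rpl101, rpl1101, rpl1102, rpl14, rpl15, rpl1502, rpl2001, rpl2101, rpl2801, rpl2802, rpl3001, rpl301, rpl31, rpl3201, rpl3601, rpl3602, rpl3702, rpl3703 and rpl501. Those that follow are the 6 largest rises.

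The gene rpl2101 (SPBC365.03c.1, eL21) rose most. Its normalised counts in total RNA were 502 and 408 for WT and 1127 and 887 for slr1-, and in polysome RNA 458 and 463 in WT and 483 and 571 in slr1-. Both slr1- total RNA libraries were above both WT libraries, a 2.21-fold rise (log2 1.15 ± 0.16 SE, adjusted p = 0.00107).
The gene rpl1701 (SPBC2F12.04.1, uL22), whose protein reaches into the exit tunnel, had 781 and 629 in WT and 1711 and 1128 in slr1- total RNA. It rose 2.01-fold (1.01 ± 0.21, adjusted p = 0.00377), and this call was lost without replicate 1 of slr1- (0.68). In polysome RNA WT had 638 and 526 and slr1- had 758 and 600, which overlap.
The gene rpl3702 (SPCC1223.05c.1, eL37, a zinc-binding protein) had 1722 and 1464 in WT and 3395 and 2744 in slr1- total RNA, a 1.93-fold rise (0.95 ± 0.14, adjusted p = 0.00129). In polysome RNA it had 634 and 610 in WT and 777 and 962 in slr1-, with no overlap.
The gene rpl3602 (SPBC405.07.1) had 1971 and 1771 in WT and 3705 and 3409 in slr1- total RNA, a 1.9-fold rise (0.93 ± 0.11, adjusted p = 0.000945). In polysome RNA WT had 1121 and 1019 and slr1- had 1320 and 1467, and these groups did not overlap either.
The gene rpl14 (SPAC1805.13.1, eL14), present as a single listed gene, had 4571 and 4038 in WT and 8246 and 7064 in slr1- total RNA, a 1.78-fold rise (0.83 ± 0.11, adjusted p = 0.000953). In polysome RNA it stood at 3744 and 3583 in WT and 3862 and 3922 in slr1-, a small difference beside that in total RNA.
The gene rpl2801 (SPBC776.11.1, uL15), whose counterpart in budding yeast is a site of cycloheximide resistance mutations, had 1081 and 845 in WT and 1760 and 1510 in slr1- total RNA. It rose 1.7-fold (0.76 ± 0.14, adjusted p = 0.00248), while in polysome RNA WT had 1312 and 1205 and slr1- had 1278 and 1216, which overlap.

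At the other end were genes with values near 0. The gene rpl2402 (eL24, at a bridge to the small subunit) had 1087 and 907 in WT and 1060 and 879 in slr1- total RNA (-0.04 ± 0.14), and the sign turned under several alternatives (0.044 to 0.31). In polysome RNA it had 497 and 580 in WT and 747 and 742 in slr1-, so that the groups overlapped in total RNA and not in polysome RNA. The gene rpl35A02 (eL33) had 1424 and 1176 in WT and 1220 and 1211 in slr1- total RNA (-0.097 ± 0.13), and 1083 and 1158 against 1269 and 1451 in polysome RNA. Its sign too turned under several, to 0.24 with scaling factors computed without ribosomal protein genes. The other values nearest 0, of rpl3002 and rpl2102, are given with their partners below.

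Of the 4 most abundant genes, 3 are given here and rpl29 with the polysome ratios below. The mRNA of rpl31 went from 10852 and 10238 to 14753 and 15284 normalised counts (0.51 ± 0.096, adjusted p = 0.00304), with 7520 and 7644 in WT and 8430 and 9516 in slr1- polysome RNA. That of rpl22 went from 11020 and 11577 to 13302 and 14112 (0.28 ± 0.092, adjusted p = 0.0268), with polysome values of 7283 and 7189 against 7981 and 8514. That of rpl35 went from 7200 and 8025 to 10323 and 9589 (0.39 ± 0.097, adjusted p = 0.00804), with 5906 and 5946 against 6961 and 6985. In these 3 genes the strains' libraries did not overlap in either fraction, but the polysome differences did not pass the test. With 2 libraries against 2 such separation is frequent even without a difference, so it adds no support. Without replicate 1 of slr1- total RNA the calls of rpl22 (0.32) and rpl35 (0.33) were lost, and that of rpl22 was also lost without replicate 2 of slr1- or replicate 1 of WT (0.24 each).

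Genes of related function gave the following counts in total RNA, beside 19.7% of all listed genes that rose and 33.6% that fell. Of the 52 small subunit genes 30 rose and 2 fell (median 0.36), and of the 7 P stalk genes 6 rose (median 0.60), all but rpp0 (0.12 ± 0.10). Without replicate 1 of slr1- total RNA the calls of rpp101 (0.22), rpp103 (0.34), rpp201 (0.53) and rpp202 (0.55) were lost. Of 4 ubiquitin fusion genes 2 rose, ubi3 (0.83 ± 0.11) and ubi5 (0.82 ± 0.14), while ubi1 (0.26 ± 0.11) and ubi2 (0.011 ± 0.12) did not pass. Of 42 symbols of 60S assembly and export factors 6 were listed, and 4 of these fell, with a median of -0.53. Among the 401 genes without an rpl, rps or rpp symbol, which include these 6 and the 4 ubiquitin fusion genes, 173 fell and the median was -0.36. The 4 were rlp7 (-0.89 ± 0.16), has1 (-0.88 ± 0.18), nog1 (-0.58 ± 0.14) and rlp24 (-0.47 ± 0.15), the last of which was lost without replicate 1 of slr1- (-0.38) or replicate 2 of WT (-0.40). Of 6 regulators searched 1 was listed, the transcription factor gene sfp1, and it fell (-0.90 ± 0.16). With scaling factors computed without ribosomal protein genes 2 of the 6 assembly factors fell (median -0.19), against 13.7% of all listed genes. Under that scaling sfp1 still fell (-0.57). Sfp1 activates ribosomal protein genes in budding yeast.

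The copies of a family did not always move together. In 10 of the 26 pairs both copies rose (rpl3, rpl9, rpl11, rpl15, rpl20, rpl28, rpl36, rpl37, rpl38 and rpl43). In 9 pairs 1 copy rose (rpl1, rpl4, rpl5, rpl17, rpl18, rpl19, rpl21, rpl30 and rpl32), and in 7 neither passed (rpl7, rpl16, rpl23, rpl24, rpl25, rpl27 and rpl35A). Of the 13 genes without a listed partner 10 rose, the others being rpl13 (0.21 ± 0.13), rpl42 (0.30 ± 0.15) and rpl3401 (0.23 ± 0.10). The protein of rpl42, eL42, lies at the cycloheximide binding site. These tallies depended on replicate 1 of slr1- total RNA. Without it the calls of rpl6 (0.31), rpl8 (0.34), rpl22 (0.32), rpl26 (0.30), rpl29 (0.32), rpl35 (0.33), rpl44 (0.30) and rpl801 (0.36) were lost. Among the pairs in which both copies rose, calls were lost for rpl2002 (0.44), rpl302 (0.45), rpl901 (0.30) and both copies of rpl38 and rpl43. The single calls in rpl4 (0.35), rpl17 (0.68), rpl18 (0.27) and rpl19 (0.39) were lost as well. A copy that passed beside one that did not is no test of their difference, so the copies were set against each other directly. The median absolute difference between the log2 changes of the copies was 0.21, from 0.0032 (rpl15) to 1.09 (rpl1). It was under 0.2 in 13 pairs and at least 0.5 in 4.

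**Figure D2:**
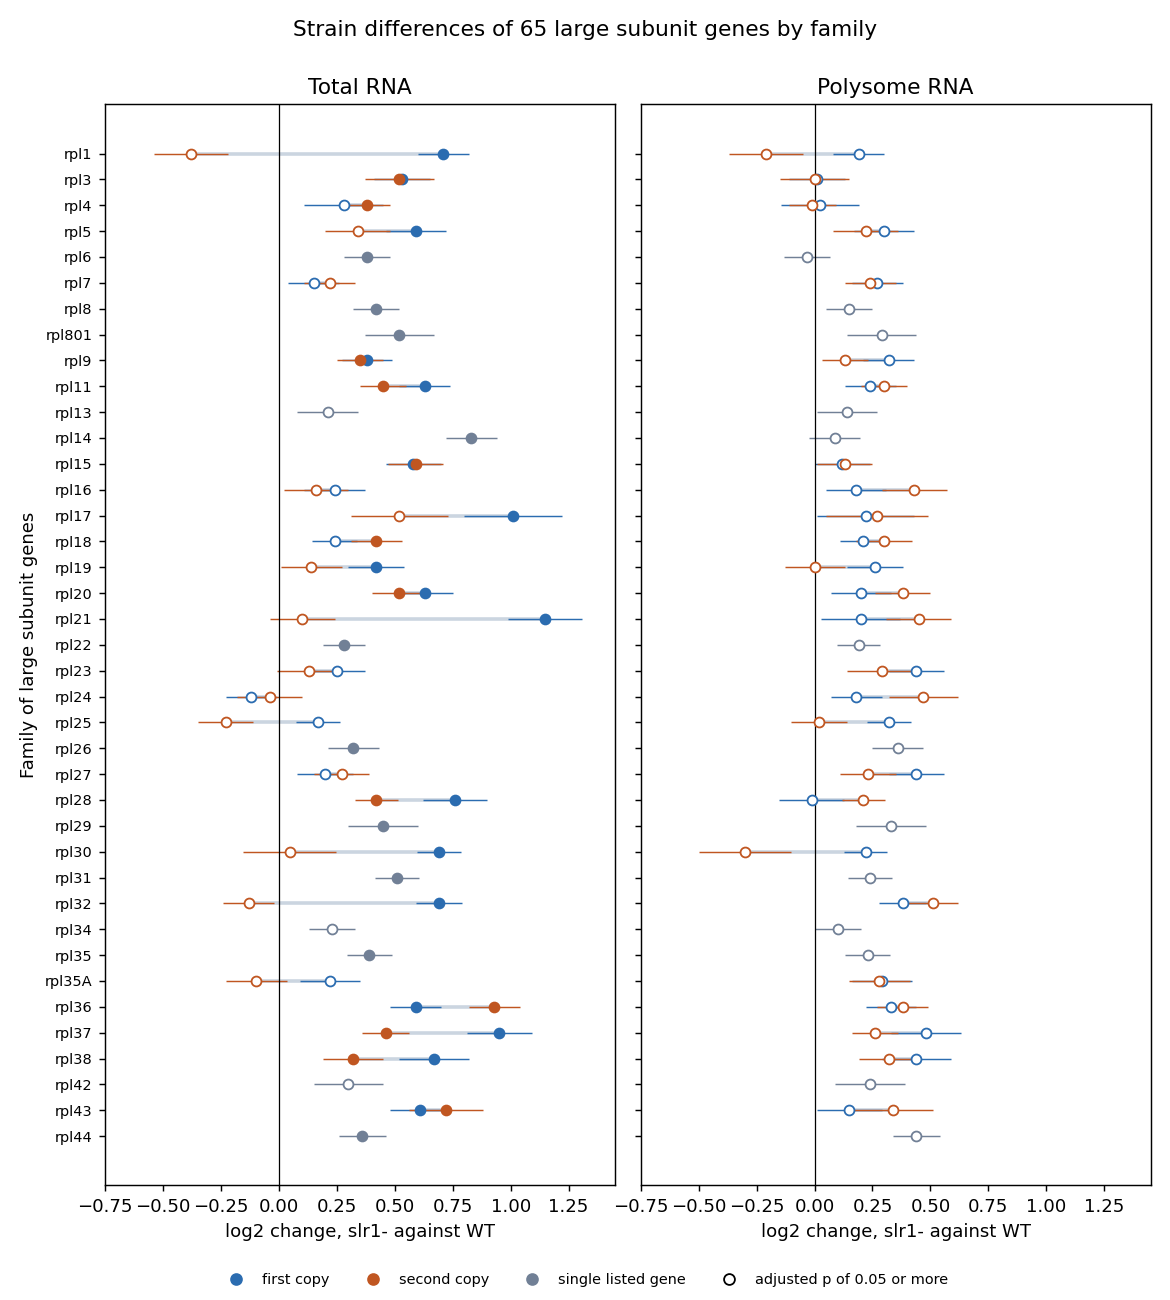
Log2 change of slr1- against WT in total RNA (left) and polysome RNA (right) for the 65 large subunit genes, 1 row per family, with grey lines joining copies and error bars of 1 SE. Filled points passed an adjusted p of 0.05, as 39 genes did in total RNA and 0 did in polysome RNA. The longest lines on the left are those of rpl1 (1.09), rpl21 (1.05) and rpl32 (0.82).

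Dividing the counts of 1 copy by those of its partner in the same library gives a ratio that no library scaling can change. The strains' ratios did not overlap in 13 of the 26 pairs for total RNA and in 18 for polysome RNA, with 10 pairs in both. Over the 46 large and small subunit pairs, which include these 26, the share without overlap was 63% for total RNA and 63% for polysome RNA. Among the 20 small subunit pairs alone, 16 did not overlap in total RNA. With 2 libraries against 2 the exact two-sided permutation test cannot give less than 0.333, so no pair can pass it. That value is also the chance of no overlap for a pair whose ratio does not differ between strains.

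The widest difference was in rpl1, whose protein uL1 forms the movable L1 stalk at the exit of tRNA. The major copy rpl101 (SPCC1183.08c.1) had 3315 and 3001 normalised counts in WT and 5484 and 4859 in slr1- total RNA, and it rose 1.64-fold (0.71 ± 0.11, adjusted p = 0.00127). The minor copy rpl102 (SPBC30D10.18c.1) had 322 and 357 in WT and 255 and 268 in slr1- (-0.38 ± 0.16, adjusted p = 0.0703). It was the lowest value of the 65 and did not pass, although its libraries did not overlap. The ratio of rpl101 to rpl102 counts went from 9.3 to 19.8 in total RNA and from 5.74 to 7.61 in polysome RNA. In polysome RNA rpl101 had 3030 and 2958 in WT and 3485 and 3332 in slr1-, and rpl102 had 537 and 507 against 514 and 390. The copies encode proteins that differ at 16 of 216 residues.

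In the rpl21 family, whose proteins differ at 1 of 160 residues, the minor copy was the one that rose. Beside rpl2101, described above, rpl2102 (SPAC959.08.1) had 1562 and 1593 in WT and 1762 and 1618 in slr1- total RNA (0.10 ± 0.14), and 705 and 824 against 920 and 1176 in polysome RNA. Its sign turned to -0.083 when only library sizes were used. The ratio of rpl2101 to rpl2102 counts went from 0.287 to 0.592 in total RNA, whereas in polysome RNA it was 0.604 in WT and 0.505 in slr1-. In slr1- the ratio was thus higher in total RNA and lower in polysome RNA, without overlap in either.

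The rpl32 pair (eL32) changed its order in total RNA. The mRNA of rpl3201 had 3206 and 3124 in WT and 5331 and 4891 in slr1- total RNA and rose 1.61-fold (0.69 ± 0.10, adjusted p = 0.00127). That of rpl3202 had 4505 and 4105 in WT and 3888 and 3993 in slr1- (-0.13 ± 0.11), a sign that turned to 0.21 with scaling factors computed without ribosomal protein genes. The ratio of rpl3201 to rpl3202 counts went from 0.736 to 1.3, so the minor copy in WT was the major copy in slr1-. In polysome RNA the ratio stayed under 1, at 0.687 in WT and 0.628 in slr1-.

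The rpl30 pair was the most unequal in WT, with a 14.1-fold difference in counts. Its protein eL30 binds its own transcript and blocks splicing of it in budding yeast. The mRNA of rpl3001 had 5495 and 5562 in WT and 9087 and 8743 in slr1- total RNA and rose 1.61-fold (0.69 ± 0.094, adjusted p = 0.000953), with 3890 and 3591 against 4324 and 4387 in polysome RNA. That of rpl3002 had 336 and 459 in WT and 449 and 371 in slr1- total RNA (0.046 ± 0.20), and 427 and 497 against 435 and 316 in polysome RNA. The groups of rpl3002 overlapped in both fractions, and its sign turned to -0.14 with library sizes alone and to -0.16 without replicate 1 of WT. The ratio of rpl3001 to rpl3002 counts was 14.1 in WT and 21.8 in slr1- total RNA, and 8.11 and 11.7 in polysome RNA.

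In the rpl17 family rpl1702 had 398 and 309 in WT and 615 and 398 in slr1- total RNA (0.52 ± 0.21, adjusted p = 0.06), and 339 and 306 against 425 and 354 in polysome RNA. The lower slr1- and the higher WT total RNA library both stood at 398. The ratio of rpl1701 to rpl1702 counts was 2 in WT and 2.81 in slr1- total RNA, and 1.8 and 1.74 in polysome RNA. Replicate 1 of slr1- total RNA was above replicate 2 in both copies.

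**Figure D3:**
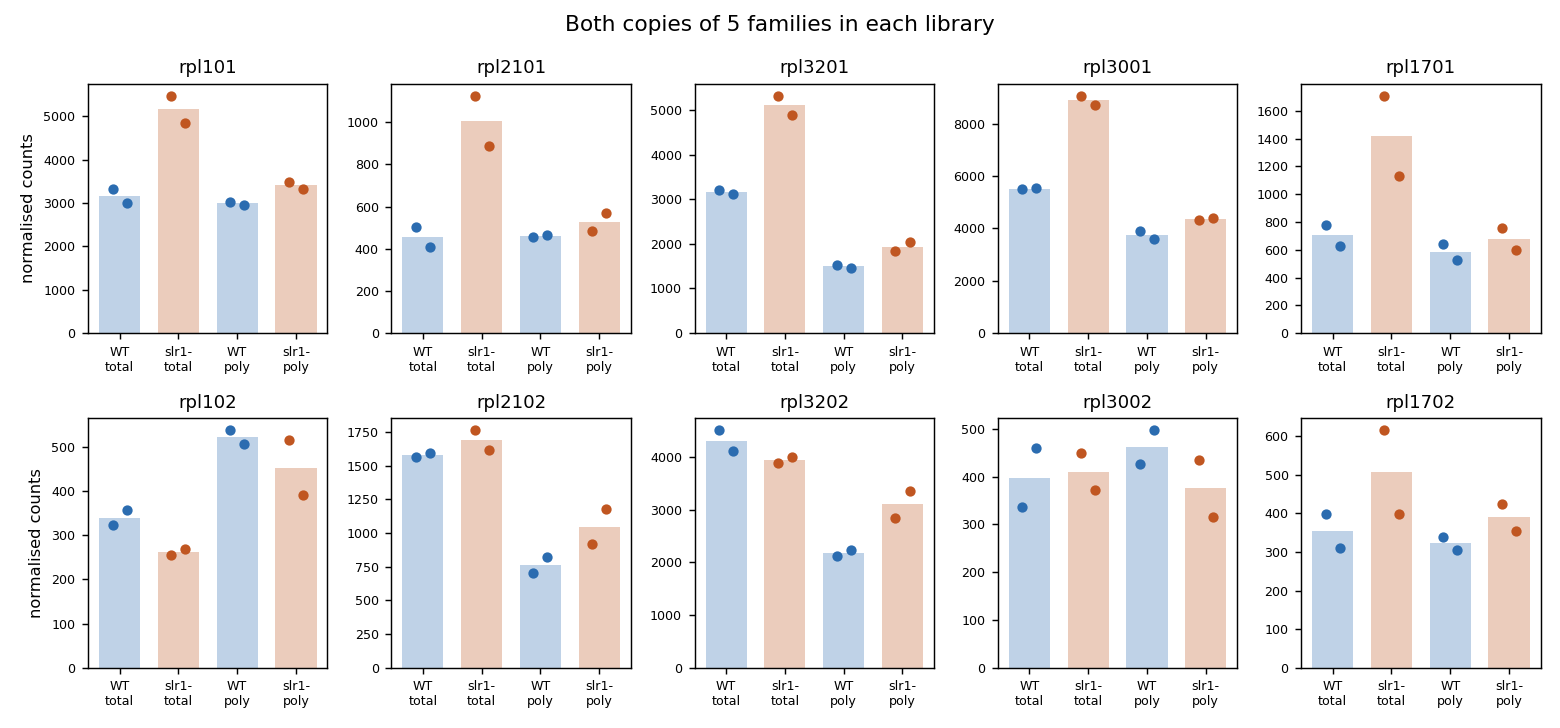
Normalised counts of both copies of the 5 families with the largest difference between copies in total RNA, in each of the 8 libraries. Points are libraries, bars are the means of 2, blue for WT and orange for slr1-, and each panel has its own scale from 0. In the upper row the slr1- total RNA points lie above the WT points, as in rpl2101 with 1127 and 887 against 502 and 408.

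Some pairs differed little in spite of unequal levels. The copies of rpl15 rose alike (0.58 ± 0.12 and 0.59 ± 0.12), and those of rpl3 changed by 0.53 ± 0.12 (rpl301) and 0.52 ± 0.15 (rpl302), though the latter share most of their 50-base words. The least abundant gene, rpl302, had 270 and 237 in WT and 380 and 346 in slr1- total RNA, and 305 and 303 against 308 and 301 in polysome RNA. That rise no longer passed without the first slr1- total RNA library (0.45) or the second WT library (0.43). The uL4 gene rpl401, the minor copy beside rpl402, had 366 and 301 in WT and 428 and 380 in slr1- total RNA (0.28 ± 0.17, adjusted p = 0.183), with no overlap.

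With the copies of each family summed into 1 row, 33 of the 39 families rose in total RNA and 0 fell, against 22.8% of the 478 rows of that table that rose. The median was 0.54 and all 39 values were positive. The families that did not pass were rpl13, rpl16, rpl24, rpl25, rpl35A and rpl42. Part of this shift is scale, since the summed table moved the genes without an rpl, rps or rpp symbol by a median of 0.15. With the scaling factors of the unsummed table, an alternative chosen after seeing the data, 29 families rose, against 83 of the 478 rows. The median was then 0.39 and 38 values were positive, all but rpl24. Many fewer families rose without replicate 1 of slr1- total RNA, and also when only library sizes were used. The numbers under such alternatives are given at the end.

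The genes left out by the rule behaved differently. The mRNA of rpl39 had 6537 and 10637 in WT and 5292 and 4952 in slr1- total RNA and fell (-0.75 ± 0.25, adjusted p = 0.03), with 2639 and 3730 against 3309 and 5242 in polysome RNA. Its WT total RNA libraries were far apart. The call was lost without replicate 2 of WT (-0.35) or either replicate of slr1- (-0.79 and -0.70), with DESeq2 (-0.67) and with scaling factors computed without ribosomal protein genes (-0.40). That of rpl3402 had 273 and 229 in WT and 141 and 192 in slr1- total RNA and fell (-0.59 ± 0.19, adjusted p = 0.0215), a call lost without replicate 1 of either strain (-0.46 and -0.38) and with scaling factors computed without ribosomal protein genes (-0.27). In polysome RNA it had 603 and 543 in WT and 579 and 503 in slr1-. Its partner rpl3401 had 3530 and 3523 in WT and 4263 and 3982 in slr1- total RNA, and 3403 and 3637 against 3579 and 3972 in polysome RNA. The ratio of rpl3401 to rpl3402 counts went from 14.1 to 25 in total RNA.

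In polysome RNA the comparison of strains asked which mRNAs differed in amount among polysome-bound RNA. Of the 65 genes 0 rose and 0 fell by the edgeR quasi-likelihood test, as did 0% and 0% of all listed genes. At an unadjusted p under 0.05, 28 of the 65 were higher and 0 lower in slr1-, against 13.5% of all listed genes that were higher. DESeq2 gave an adjusted p to 54 of the 65 genes and called 8 of them higher, against 11.5% of the 200 listed genes to which it gave one, and limma-voom called 0. The median of the 65 was 0.24 (1.18-fold) and 60 values were positive, beside a median of -0.027 over all listed genes.

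The smallest p was that of rpl3202 (SPAC3H5.10.1), with 2129 and 2226 normalised counts in WT and 2838 and 3356 in slr1- (0.51 ± 0.11, adjusted p = 0.0818). Its partner rpl3201 had 1529 and 1461 in WT and 1844 and 2040 in slr1- (0.38 ± 0.10, adjusted p = 0.106). The rpl32 copies thus had higher values together in polysome RNA, unlike in total RNA. The gene rpl44 had 2772 and 2500 in WT and 3516 and 3635 in slr1- (0.44 ± 0.10, adjusted p = 0.0818), after 5029 and 5118 against 6744 and 6236 in total RNA, where it rose (0.36 ± 0.10, adjusted p = 0.0137), a call lost without replicate 1 of slr1- (0.30). The gene rpl2301 (SPAC3G9.03.1, uL14) had 1111 and 1231 in WT and 1439 and 1746 in slr1- (0.44 ± 0.12, adjusted p = 0.106), after 2274 and 2141 against 2720 and 2535 in total RNA (0.25 ± 0.12). In none of these 4 did the strains overlap in polysome RNA. They were chosen by their small p in this comparison, so that adds no support. The 6 genes with the largest rise in total RNA had polysome log2 changes from -0.013 (rpl2801) to 0.48 (rpl3702), none past the threshold.

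The test of the strain difference of the polysome to total ratio compared these changes directly. By the edgeR quasi-likelihood test 0 of the 65 genes were higher and 0 lower, beside 0.19% and 0.19% of all listed genes. At an unadjusted p under 0.05, 17 were lower and 2 higher, against 8.35% and 18.2% of all listed genes. The median was -0.15, against 0.15 over all listed genes, and 47 of the 65 values were negative. DESeq2 called 6 lower (rpl101, rpl14, rpl2101, rpl2801, rpl3001 and rpl3602) and 1 higher (rpl3202), against 3.42% and 3.61% of all listed genes, and limma-voom none. This ratio shares its total RNA libraries with the first comparison, so a rise there lowers it by construction.

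The smallest p was that of rpl14 (-0.74 ± 0.16, adjusted p = 0.0531), whose polysome to total log2 ratio was -0.23 ± 0.11 in WT and -0.98 ± 0.11 in slr1-. For rpl2101 the difference was -0.95 ± 0.23 (adjusted p = 0.0531), with 0.016 ± 0.17 in WT and -0.93 ± 0.16 in slr1-. For rpl2801 it was -0.78 ± 0.20 (adjusted p = 0.0569), with 0.39 ± 0.14 in WT and -0.39 ± 0.14 in slr1-. In each of these 3 genes polysome RNA was close between strains and total RNA was not. They were picked for a small p of this difference, so the pattern adds no support. The gene rpl3202 went the other way (0.64 ± 0.16, adjusted p = 0.0551), from -0.98 ± 0.11 in WT to -0.35 ± 0.11 in slr1-. The other gene with a higher value at an unadjusted p under 0.05 was rpl2402 (0.51 ± 0.21).

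Within each strain, polysome RNA was compared with total RNA. In WT, 4 of the 65 genes were higher in polysome RNA and 34 lower, against 20.9% and 28.8% of all listed genes, and the median log2 ratio was -0.34. In slr1- cells 2 were higher and 41 lower, against 34% and 30.7%, with a median of -0.51. The same 31 genes were lower in both strains, and 2 were higher in both, against 24.1% and 17.1% of all listed genes. These counts depend on the scaling: with library sizes alone they were 17 higher and 20 lower in WT, against 46.7% and 19.7% of all listed genes. In slr1- they were 15 higher and 25 lower, against 55.4% and 17.8%. That scaling moved the median of all listed genes by 0.32 and 0.41. The ratios are relative to the other listed genes and do not give the share of an mRNA on polysomes.

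The 3 highest in WT were rpl401, rpl102 and rpl2801. The mRNA of rpl401 went from the total RNA values given above to 566 and 533 in WT polysome RNA (0.72 ± 0.17, adjusted p = 0.00601) and 636 and 481 in slr1- (0.47 ± 0.17, adjusted p = 0.0317). That of rpl102 was 1.54-fold higher in WT (0.62 ± 0.16, adjusted p = 0.00939) and stood at 0.79 ± 0.16 in slr1- (adjusted p = 0.0014). Both are minor copies, and they were the genes higher in both strains. That of rpl2801 was higher in WT (0.39 ± 0.14, adjusted p = 0.0399) and lower in slr1- (-0.39 ± 0.14, adjusted p = 0.027). The fourth higher in WT was rpl1902 (0.36 ± 0.13), again a minor copy. Its call was lost without any 1 of the 4 WT libraries (0.30 to 0.43). The WT call of rpl2801 was lost without either polysome library (0.32 and 0.47) or replicate 2 of total RNA (0.22), and that of rpl102 without polysome replicate 1 (0.58), while that of rpl401 passed without each. In slr1- the call of rpl401 was lost without polysome replicate 1 (0.14) or either total RNA library (0.55 and 0.38). That of rpl2801 was lost there without polysome replicate 2 (-0.37) or total RNA replicate 1 (-0.28).

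The 3 lowest in WT were short mRNAs, and rpl4302 and rpl3702 among them are also minor copies. The gene rpl4302 (SPBC83.02c.1, eL43, a zinc-binding protein) had 1779 and 1741 in WT total RNA and 447 and 537 in WT polysome RNA (-1.84 ± 0.17, adjusted p = 1.3e-05). In slr1- it had 3250 and 2537 in total RNA and 538 and 709 in polysome RNA (-2.21 ± 0.17). The gene rpl29 (eL29) had 7839 and 7212 in WT total RNA and 2159 and 2507 in polysome RNA (-1.69 ± 0.16). In slr1- it had 11078 and 9414, and 2464 and 3404 (-1.80 ± 0.16). Between strains rpl29 rose in total RNA (0.45 ± 0.15, adjusted p = 0.0313), a call lost without replicate 1 (0.32) of slr1- or either replicate of WT (0.51 and 0.39). The third, rpl3702, was at -1.36 ± 0.15 in WT and -1.82 ± 0.15 in slr1-. In all 3 the total and polysome libraries of a strain were far apart, while rpl4301, the partner of rpl4302, was less so: the ratio of rpl4301 to rpl4302 counts was 2.65 in WT total RNA and 6.87 in WT polysome RNA.

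Over the 65 genes the log2 polysome to total ratio went with transcript length, with a Spearman rho of 0.51 in WT and 0.40 in slr1-, as a description across genes that share libraries. Among 389 other annotated listed genes rho was 0.29 and 0.22. The median ratio in WT was -0.71 in 17 genes with transcripts under 500 bases, -0.34 in 25 of 500 to 700 bases and -0.13 in 23 over 700 bases. In total RNA the strain difference had a rho of -0.097 with length over the 65, and in polysome RNA -0.43. Among the 389 other genes these were -0.29 and -0.50, so the trend in polysome RNA was not particular to the 65. Which gradient fractions were taken as polysomes is unstated in the labels. Genes with and without an intron had median changes of 0.29 and 0.42 in total RNA (32 and 33 genes).

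**Figure D4:**
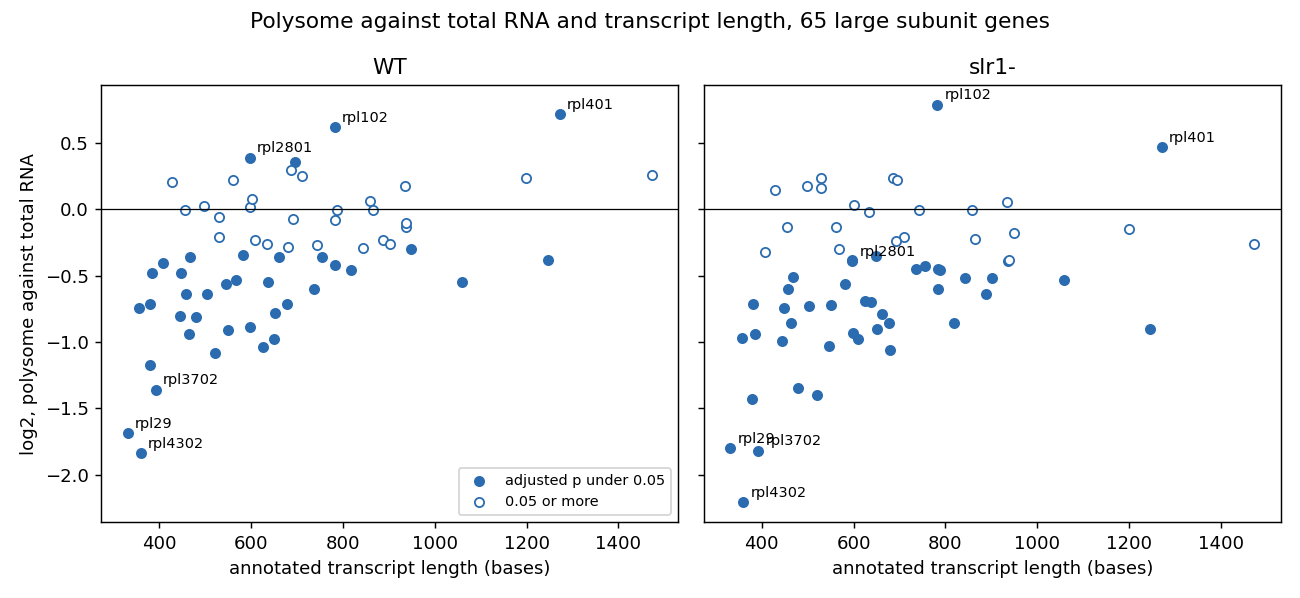
Log2 ratio of polysome to total RNA (vertical axis) against annotated transcript length in bases (horizontal axis) for the 65 large subunit genes, in WT (left) and slr1- (right). Filled points passed an adjusted p of 0.05. The lowest points are short mRNAs, with rpl4302 (360 bases) at -1.84 in WT and -2.21 in slr1-, while others as short lie higher, as rpl3801 (356 bases) at -0.74 in WT. The highest are rpl102 and rpl401.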

How the data were processed

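Counts of 527 genes in 8 libraries of single 50 bp reads were used, whole numbers as deposited; how the authors chose these genes is unstated. Bowtie and RSEM are named in the submitters' processing notes (versions, genome build, annotation: not given in the sources used here). RSEM divides reads that match several genes by estimation, which bears on near-identical copies. The authors' deposited table has its own test: log2 changes, p-values and adjusted p-values, of which only the adjusted p-values for total RNA were read. Libraries were rRNA-depleted and stranded, per the labels' protocols.

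Counts were scaled by TMM and tested with edgeR 4.0.16 in R 4.3.3 (quasi-likelihood, 1 mean for each of the 4 groups, all 8 libraries in 1 fit, two-sided), with Benjamini-Hochberg adjustment over all 527 genes. SE is the absolute log2 change divided by the square root of F. The test was checked on simulated counts. Alternatives used DESeq2 1.42.0, limma-voom (limma 3.58.1), other scalings, a minimum mean of 500 counts, copies summed, a replicate block and each library left out. Identifiers of 515 of 527 genes matched RefSeq ASM294v3, which supplied symbols, lengths and sequences; protein identity came from translated coding sequences. Replicates differed beyond counting noise (chi-square from 3370 to 13602 on 526 degrees of freedom), and over the 65 genes the SD of the log2 ratio of replicates was 0.11 to 0.19.

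Values in every library are given for the 6 largest rises and 4 smallest changes in total RNA, the 5 pairs with the largest difference between copies, the 4 smallest p in polysome RNA and in the strain difference of the ratio, the 3 highest and 3 lowest polysome to total ratios in WT, the 4 most and 3 least abundant genes per length, and the genes left out. Members and lists were chosen with earlier results of these data known.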

Additional observations from a re-analysis of the deposited data

How the results depend on the processing

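Among 39 results, each with its own alternatives, 13 kept their direction and their side of the threshold throughout. In total RNA, library sizes alone gave 25 rises, 4 falls and a median of 0.20 (16 families with copies summed), and a minimum mean of 500 counts 25, 1 and 0.24. The median was 0.73 with TMM factors computed without ribosomal protein genes and 0.51 with only the groups compared; with rpl39 and rpl3402 added 2 genes fell. Leaving out 1 library at a time gave 20 to 42 rises, 0 to 1 falls and 13 to 37 families. In polysome RNA the median was 0.15 with library sizes alone and with at least 500 counts, and 0.30 without ribosomal protein genes in the TMM factors, and DESeq2 called 8 higher.

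For the strain difference of polysome to total RNA the higher and lower counts were 1 and 2 with library sizes alone (median -0.064), 1 and 6 with DESeq2 (-0.23, as with DESeq2 size factors in edgeR), and 1 and 1 with at least 500 counts; the median was -0.43 with TMM factors computed without ribosomal protein genes. With 1 library left out, 0 to 7 were lower and the median was -0.26 to -0.079. For polysome against total RNA, library sizes alone gave 17 higher, 20 lower and a median of -0.025 in WT, and 15, 25 and -0.11 in slr1-. TMM factors without ribosomal protein genes gave 2 higher and -0.45 in WT, and 1 and -0.90 in slr1-; at least 500 counts gave -0.25 in WT, and 5 higher and -0.36 in slr1-. DESeq2, and its size factors in edgeR, gave 1 higher in slr1-. With 1 library left out 1 to 3 genes were higher in WT and 1 to 2 in slr1-, where the median was -0.63 to -0.44.

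Signs of small values turned. In total RNA rpl2402 was 0.044 with DESeq2 and with its size factors, 0.31 with TMM factors without ribosomal protein genes, 0.094 with only the groups compared and -0.18 to 0.097 with a library left out. The value of rpl3002 was -0.14 with library sizes alone and -0.16 to 0.29 with a library left out, and that of rpl2102 -0.083 with library sizes alone and -0.044 with at least 500 counts. The value of rpl35A02 was 0.24 and that of rpl3202 0.21 with TMM factors without ribosomal protein genes; rpl35A02 was 0.032 with only the groups compared and -0.23 to 0.048 with a library left out. The causes were not tested.

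Replicate numbers were not shown to pair the libraries: same-numbered deviations from the group means correlated at -0.14 between strains in total RNA, -0.063 in polysome RNA, 0.29 between fractions in WT and 0.07 in slr1-. A replicate block gave 41 rises in total RNA, 0 calls in polysome RNA and 2 lower genes in the strain difference (rpl14 and rpl2801); a block by strain gave 1 higher (rpl3202) and 4 lower there (rpl14, rpl1701, rpl2101 and rpl2801), against 6.64% and 2.09% of all listed genes. A crossed block, chosen after seeing the data, gave 39 rises in total RNA. Where a library was left out, the single library of its group was assumed to vary like the others. With 2 libraries a group, differences near the SE were not detectable, and totals over listed genes are not sequencing depth.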
